A study of Mus musculus with 8 samples.

Results

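The H19 and Igf2 locus of mouse chromosome 7 was described from chromatin immunoprecipitation with sequencing (ChIP-seq) of skeletal muscle nuclei. The locus was defined by 5 of the 55413 annotated genes: H19, Igf2, Ins2, Nctc1 and Lsp1. They were taken by name from the GENCODE annotation of mm10, the build of the deposited files, and every peak lying within the genes' joint span or 50 kb to either side of it was kept. That stretch of 382.573 kb (chr7:142410809-142793381) held 185 of the 189391 peaks in the 6 deposited lists. The lists were for the glucocorticoid receptor (GR), RNA polymerase II (Pol2), 3 histone marks (H3K27ac, H3K4me1 and H3K4me3) and the chromatin architectural protein CTCF. All came from WT mice of strain C57/Bl6J at 10 to 12 weeks of age, with 1 library per antibody and 2 inputs without a peak list. No treatment is stated, so the lists describe a single condition, and the labels name neither the muscle nor the number of animals. Values below have no replicate, cannot be tested between animals, and carry no error of their own. The depth of the libraries is unknown from the lists.

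H19 and Igf2 are the textbook pair of oppositely imprinted genes. H19, a long non-coding RNA that hosts the microRNA Mir675, is expressed from the maternal chromosome, and Igf2, which encodes a fetal growth factor, from the paternal one. Between them, close upstream of H19, lies an imprinting control region. On the unmethylated maternal copy it is known to bind CTCF and to insulate Igf2 from enhancers downstream of H19, and on the paternal copy DNA methylation prevents that binding. Nctc1 is a non-coding RNA gene transcribed through a stretch downstream of H19 that is known to hold a muscle enhancer of both genes. Ins2 encodes insulin in pancreatic beta cells, and Lsp1 encodes an actin-binding protein best known from leukocytes. H3K4me3 marks promoters, H3K4me1 marks enhancers and flanks of promoters, and H3K27ac marks active promoters and enhancers.

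The letters under the control region are shown first, because the absence of CTCF peaks there is one of the main observations. The region was taken as 1.5 to 5 kb before the H19 start site (chr7:142579643-142583143, 3501 bases). The 9 letters CGNGGNGGC, a motif of CTCF sites in that region, were found 3 times on the minus strand, 2168, 2623 and 3893 bases before the start site. They are printed 5′ to 3′ from GRCm38 with the match in capitals.
H19 control region, first match (chr7:142580301-142580329): gacgatgccgCGTGGTGGCagtacaatac
H19 control region, second match (chr7:142580756-142580784): gatgctaccgCGCGGTGGCagcatactcc
H19 control region, last match (chr7:142582026-142582054): ggagttgccgCGTGGTGGCagcaaaatcg
A match to the CTCF core consensus with 1 mismatch lay 3769 bases before the start site, also on the minus strand.
H19 control region, core consensus (chr7:142581902-142581933): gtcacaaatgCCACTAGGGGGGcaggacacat
Of the 40492 consecutive stretches of 3501 bases on chromosome 7, 0.341% held CGNGGNGGC as often on either strand, and 10.6% held it at all. Because these letters are a motif of this region's own sites, finding them often here was given in advance, and the shares test nothing. The core consensus was found in 27.6% of these stretches. A match describes letters and does not show that the protein sat there.

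No CTCF peak was called in the control region. The nearest CTCF peak lay 32493 bases from the H19 start site, on its upstream side inside the non-coding gene Gm33148. A broad H3K4me1 peak of 7127 bases (chr7:142576710-142583836) covered the whole control region, ran over the H19 start site and ended inside H19. Neither GR, Pol2, H3K27ac nor H3K4me3 had a peak in the control region. A peak list holds only what passed the authors' threshold, so binding below it was not detectable here.

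Elsewhere in the stretch lay 7 CTCF peaks. From the Lsp1 side to the Ins2 side, the authors' deposited fold enrichment was 8.96 at Syt8, 9.52 in Lsp1, 5.63 in Prr33, 9.38 in Mrpl23, 4.78 in Gm33148, 7.80 between Igf2 and Ins2, and 7.84 within the long annotated span of Ins2. The Lsp1 peak (chr7:142481244-142481490) was the highest of them, and 27.02% of the 6526 CTCF peaks had a fold at least as high. The Gm33148 peak (chr7:142610636-142610836), the only one between H19 and Igf2, was the lowest, with 97.5% of the list at least as high. The median of the 7 was 7.84, against 7.59 over the whole list, and 5 of the 7 lay above the list's median by fold and 3 by −log10 q-value. The peaks of the locus were thus of ordinary strength for this library.

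The CTCF peaks also differed in the marks around them. Those in Lsp1, Prr33 and Mrpl23 met an H3K4me3 peak and a GR peak. The Syt8 and Gm33148 peaks met H3K4me1 and no other list. The pair beside and inside Ins2, at 94.2 and 159 kb upstream of H19, met no peak of the other lists.

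Windows of 200 bases at the summits held a match to the CTCF core consensus (1 mismatch allowed, both strands) in 3 of the 7 peaks, or 42.9%, against 62.2% of all CTCF peaks and 1.81% of windows of that length along chromosome 7. The window in Mrpl23 held CGNGGNGGC (1 of 7, 14.3%), as did 5.75% of the list and 0.676% of the windows along the chromosome. The matches are shown with the consensus letters in capitals, 5′ to 3′ on the strand of the match.
CTCF peak in Lsp1, plus strand (chr7:142481359-142481390): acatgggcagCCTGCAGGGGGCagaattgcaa
CTCF peak in Mrpl23, plus strand (chr7:142533093-142533121): cctccggaagCGAGGGGGCgctgtgccag
CTCF peak between Igf2 and Ins2, minus strand (chr7:142672316-142672347): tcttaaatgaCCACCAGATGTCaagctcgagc
CTCF peak in the Ins2 span, plus strand (chr7:142737116-142737147): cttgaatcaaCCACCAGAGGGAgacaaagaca
The remaining summit windows, at Syt8, Prr33 and Gm33148, held neither.

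**Figure D1:**
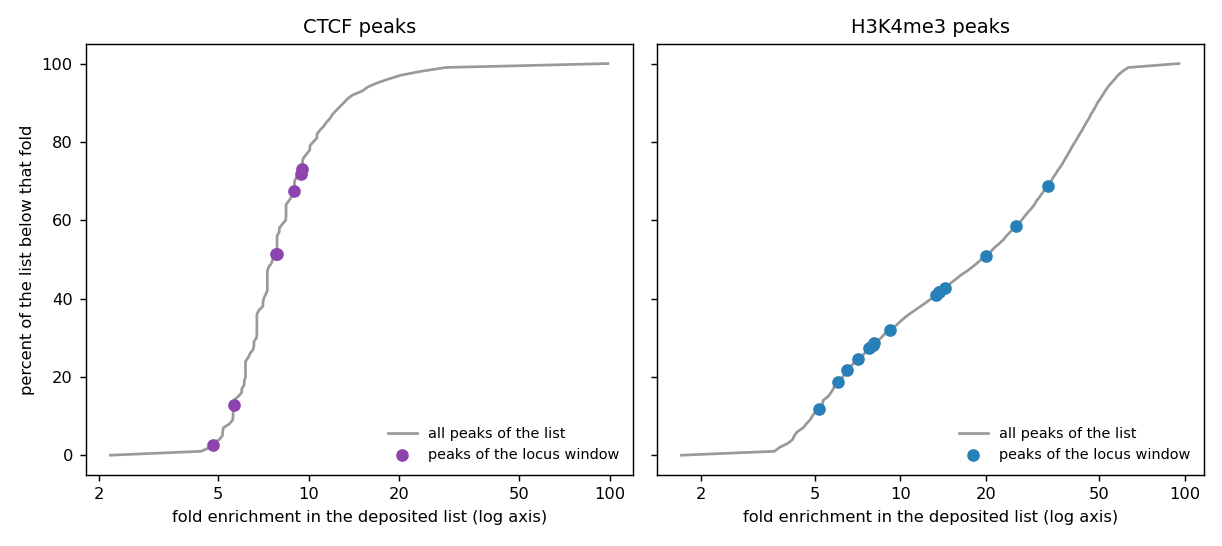
Fold enrichment given by the authors for the CTCF and H3K4me3 peaks of the locus window (points) on the curve of their whole list (grey). The x axis is fold enrichment on a log axis and the y axis is the percent of the list below that fold; the 7 CTCF peaks run from 4.78 to 9.52, and 3 of the 16 H3K4me3 peaks lie above their list's median of 19.3.

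The stretch as a whole was rich in peaks. GR peaks stood at 131 per Mb, against 8.51 per Mb over all nuclear chromosomes, Pol2 peaks at 75.8 against 7.41, and H3K27ac peaks at 133 against 16.2. The other densities were 83.6 against 27.7 for H3K4me1, 41.8 against 7.27 for H3K4me3, and 18.3 against 2.39 for CTCF. Of 7115 consecutive genomic stretches of the same length, 2 held as many GR peaks as the 50 seen here, and 1 of those 2 overlapped the locus. In comparison, 65 stretches held as many Pol2 peaks as its 29, and 643 held as many H3K4me1 peaks as its 32. The fast-muscle troponin genes Tnnt3 and Tnni2 lie in the stretch beside the 5 genes, so the density is not that of the imprinted genes alone.

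The peaks were divided unevenly about the H19 start site. By midpoint, 46 of the 50 GR peaks lay downstream of it, towards Nctc1 and Lsp1, and 4 lay upstream, towards Igf2 and Ins2. Of the 46 downstream, 19 met the joined span of Lsp1, Prr33 and Tnnt3, and 7 lay beyond Lsp1, around Tnni2. The troponin genes thus share in the downstream count, which is not that of the 5 locus genes alone. Pol2 had 23 downstream and 6 upstream, H3K27ac 46 and 5, and H3K4me3 15 and 1. H3K4me1 peaks were split 17 and 15, and CTCF peaks 4 and 3. From the start of the Igf2 gene body to the far end of the stretch, neither GR, Pol2 nor H3K27ac had a peak.

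**Figure D2:**
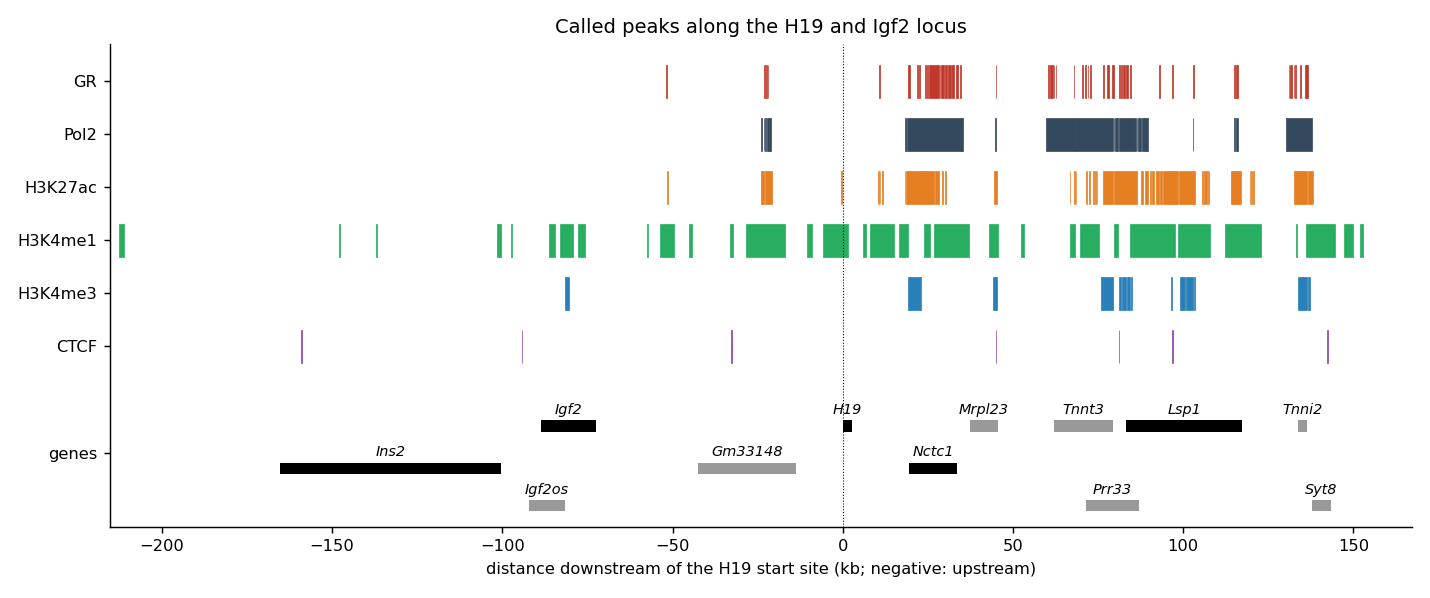
Called peaks of the 6 lists along the locus, by distance in kb downstream of the H19 start site (dotted line; negative values are upstream), with the 5 locus genes in black and selected neighbours in grey below. Most GR, Pol2 and H3K27ac peaks lie downstream of H19, over Nctc1 and from Tnnt3 to Tnni2 with gaps between, and none of the 3 lists has a peak over Igf2 or Ins2.

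A peak within 1 kb of an annotated start site was used to describe promoters. By this rule GR was found at 2 of the 5 genes (Nctc1 and Lsp1), Pol2 at 2 (the same genes), H3K27ac at 3 (H19, Nctc1 and Lsp1), H3K4me1 at all 5, H3K4me3 at 3 (Igf2, Nctc1 and Lsp1) and CTCF at 0. By RefSeq start sites, Lsp1 had CTCF and no Pol2. Over all 21938 protein-coding genes the shares were 43.4% for GR, 47.1% for Pol2, 52.4% for H3K27ac, 65.8% for H3K4me1, 61.5% for H3K4me3 and 7.54% for CTCF. Over the 10155 long non-coding genes they were 15% for GR, 14.1% for Pol2, 19.3% for H3K27ac, 37.2% for H3K4me1, 20.9% for H3K4me3 and 2.91% for CTCF. With 5 genes, counts of this size do not set the locus apart from such shares, and the genes are described one at a time.

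Nctc1 (ENSMUSG00000087090.7, minus strand, chr7:142544609-142558596, 13988 bases) had the largest share of its span under GR, Pol2 and H3K4me3 of the 5, while Lsp1 had more under H3K4me1 and CTCF and about as much under H3K27ac. A single Pol2 peak of 16240 bases (chr7:142543081-142559320) covered 100% of the gene. It began 724 bases before the start site and ran 1528 bases past the annotated end. It was number 4 in width among 20192 Pol2 peaks, and 6 of the 10155 long non-coding genes, Nctc1 included, were fully covered by Pol2. The gene carried polymerase along its whole length, as did the muscle gene Tnni2 (100%) and nearly all of Tnnt3 (99.4%).

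GR occupancy of Nctc1 was also dense. Of the 50 GR peaks in the stretch, 14 met the gene and covered 57.0% of it. Of the long non-coding genes, 6 had as many GR peaks and 16 were as fully covered. The peaks were 127 to 3106 bases wide with a median of 414 bases, against a median of 212 bases over all 23188 GR peaks. Gaps between neighbours ran from 65 to 2068 bases with a median of 258, and 4 of the 13 gaps were under 200 bases. Some of these calls thus lay closer together than the median GR peak is wide, and their number depends on where the caller split them.

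The widest GR peak of the locus (chr7:142549819-142552924, 3106 bases) lay inside Nctc1, 25.2 to 28.3 kb downstream of the H19 start site. It was number 4 in width in the whole GR list. It met 2 H3K27ac peaks and 2 H3K4me1 peaks, lay wholly within the long Pol2 peak, and met neither H3K4me3 nor CTCF. Of the 10 widest GR peaks in the stretch, 5 lay in Nctc1. Besides the peak of 3106 bases they were 916, 847, 554 and 540 bases wide.

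**Figure D3:**
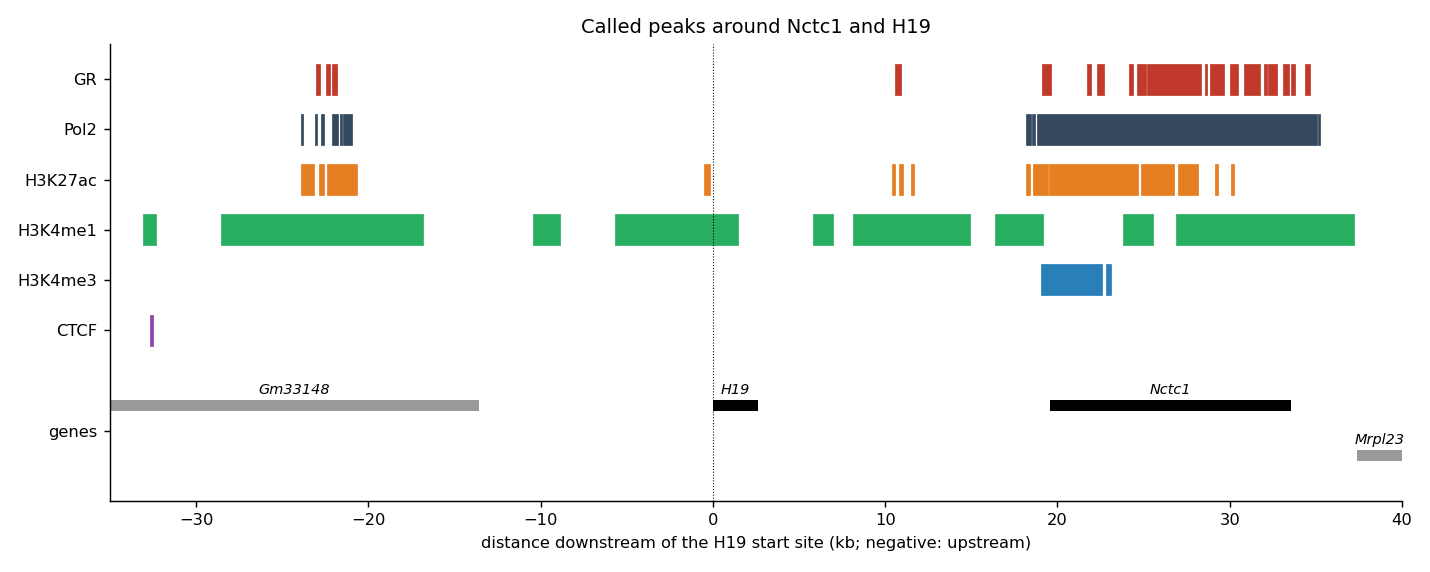
Called peaks of the 6 lists around Nctc1 and H19, by distance in kb downstream of the H19 start site (dotted line; negative values are upstream). Nctc1 lies under a Pol2 peak of 16240 bases with 14 GR peaks meeting the gene, while H19 has a H3K27ac peak just before its start site and a H3K4me1 peak across it.

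The histone marks divided Nctc1 into a promoter end and an enhancer-marked body. At the start site, a H3K4me3 peak of 3516 bases (chr7:142555572-142559087) had a fold of 25.5, which 41.6% of the list reached, and a smaller one downstream of it had a fold of 6.52. A GR peak of 540 bases (chr7:142558516-142559055) lay on the start site itself. H3K27ac covered 60.3% of the gene in 5 peaks, the widest of 5192 bases at the promoter end, H3K4me1 covered 60.03% and H3K4me3 23.8%. Of the 14 GR peaks, 3 met H3K4me3 (promoter class), 5 met H3K4me1 and H3K27ac without H3K4me3 (enhancer class), and 6 met H3K4me1 only. No CTCF peak met the gene.

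The promoters of the RefSeq table (250 bases before to 50 bases after a start site) could be matched for Nctc1, with 1 start site, and Igf2, with 4. The 250 bases before the start site are shown for the promoters that a H3K4me3 peak met, 1 for each gene, with CpG dinucleotides in capitals, since they are where DNA methylation acts. Both are on the minus strand and are credited to RefSeq, build GRCm38.p6.
Nctc1 promoter (chr7:142558599-142558848): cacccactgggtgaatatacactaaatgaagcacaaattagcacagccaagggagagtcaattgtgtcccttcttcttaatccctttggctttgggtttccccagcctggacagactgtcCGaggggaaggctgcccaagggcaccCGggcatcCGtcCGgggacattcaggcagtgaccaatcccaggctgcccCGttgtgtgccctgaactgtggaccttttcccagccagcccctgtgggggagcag
Igf2 promoter (chr7:142658805-142659054): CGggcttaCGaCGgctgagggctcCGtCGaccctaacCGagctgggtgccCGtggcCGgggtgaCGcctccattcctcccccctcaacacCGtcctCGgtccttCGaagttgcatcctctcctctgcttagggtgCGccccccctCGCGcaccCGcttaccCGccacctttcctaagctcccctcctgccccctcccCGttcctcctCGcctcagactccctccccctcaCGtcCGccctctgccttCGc
The Igf2 stretch held 22 CpG and the Nctc1 stretch 5. Over the full 300-base promoters, Igf2 had 24 CpG and 64.7% GC and Nctc1 had 5 CpG and 57.3% GC, against medians of 7 CpG and 52.7% GC over 32851 RefSeq promoters. The Nctc1 promoter met peaks of GR, Pol2, H3K27ac and H3K4me3, and this Igf2 promoter met H3K4me1 and H3K4me3 only. The other 3 Igf2 promoters met no peak or H3K4me1 alone. In these 300 bases, neither printed promoter held the glucocorticoid response element (GRE) consensus with 1 mismatch, which 1313 of the 32851 RefSeq promoters held.

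H19 itself (ENSMUSG00000000031.16, minus strand, chr7:142575529-142578143, 2615 bases) had no GR, Pol2, H3K4me3 or CTCF peak. From its 7 annotated start sites, the nearest Pol2 peak lay 16575 bases away, the nearest H3K4me3 peak 17451 bases and the nearest GR peak 8986 bases. A H3K27ac peak of 378 bases (chr7:142578289-142578666) lay 146 bases before the first start site. Its width was close to the list's median of 341 bases, and 45.4% of the H3K27ac list was as wide. H3K4me1 covered 54.8% of the gene, and 11.1% of the long non-coding genes were covered as fully. The promoter region of H19 carried H3K27ac and H3K4me1 without a called polymerase or H3K4me3 peak.

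Between Nctc1 and H19, one GR peak stood apart from those of the Nctc1 promoter (chr7:142567256-142567552, 297 bases), 10.7 kb downstream of the H19 start site. It met H3K4me1 and H3K27ac and was of the enhancer class, with no Pol2 peak on it.

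Igf2 (ENSMUSG00000048583.16, minus strand, chr7:142650766-142666816, 16051 bases) had no GR, Pol2, H3K27ac or CTCF peak in its span. From its 9 annotated start sites the nearest GR peak was 23004 bases away and the nearest Pol2 peak 50962 bases. Its one promoter mark was a H3K4me3 peak of 1244 bases (chr7:142658411-142659654) that covered an inner start site. The fold of that peak was 8.08, and 71.4% of the H3K4me3 list was at least as high. It was the only H3K4me3 peak of the 16 that lay upstream of H19. H3K4me1 covered 46.5% of Igf2 in 3 peaks. The annotated genes Gm49394 and Igf2os overlap Igf2, and peaks in the shared stretches cannot be assigned to one of them. The CTCF peak between Igf2 and Ins2 lay 5413 bases from the first Igf2 start site.

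Ins2 (ENSMUSG00000000215.11, minus strand) had 1 feature at its promoter, a H3K4me1 peak of 1268 bases (chr7:142678386-142679653). GENCODE draws the gene as 64726 bases because of a long transcript, and of that span 2.81% was under H3K4me1. RefSeq draws the short insulin gene (chr7:142678656-142679726), of which 93.2% was under the same peak. No GR, Pol2, H3K27ac or H3K4me3 peak met either form. Of 5 beta cell genes that include Ins2, 0 had Pol2 within 1 kb of a start site and 1, Ins2 itself, had H3K4me1. Over all protein-coding genes, the shares were 47.1% and 65.8%.

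Lsp1 (ENSMUSG00000018819.10, plus strand, chr7:142460809-142494867, 34059 bases) was marked along most of its length. H3K4me1 covered 79.7% and H3K27ac 60.2%. The H3K27ac peaks of the gene were 19, as many as in 0.830% of protein-coding genes. Pol2 covered 19.3% in 11 peaks, H3K4me3 17.3% in 6 peaks and GR 4.95% in 7 peaks. The 3 start sites at the head of the gene had H3K27ac and H3K4me1, but their nearest H3K4me3 peak was 13855 to 13910 bases away. A GR peak of 555 bases (chr7:142462019-142462573) and a Pol2 peak of 741 bases lay 1155 and 1123 bases from them at the nearest.

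Of the 9 inner start sites of Lsp1, 5 were like those at the head, with H3K27ac and H3K4me1 and no peak of another list within 1 kb. Another 2 had Pol2 beside these marks and 1 had H3K4me3. The one at position 142474994 had these marks with 2 H3K4me3 peaks, a GR peak of 147 bases at 122 bases and a Pol2 peak at 170 bases. The highest H3K4me3 fold in Lsp1 was 13.7, against a list median of 19.3. Towards its 3′ end the gene overlaps Prr33, and peaks in the shared part cannot be assigned to either gene. Prr33 in turn overlaps the muscle gene Tnnt3. Pol2 covered 93.5% of Prr33, in part through a peak of 11249 bases that also met Tnnt3, so this share cannot be assigned to Prr33. Of 4 immune cell markers, 1 had Pol2 at a start site, against 10 of 10 muscle fibre markers and 47.1% of all protein-coding genes. Which cell type the Lsp1 peaks came from was not tested.

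**Figure D4:**
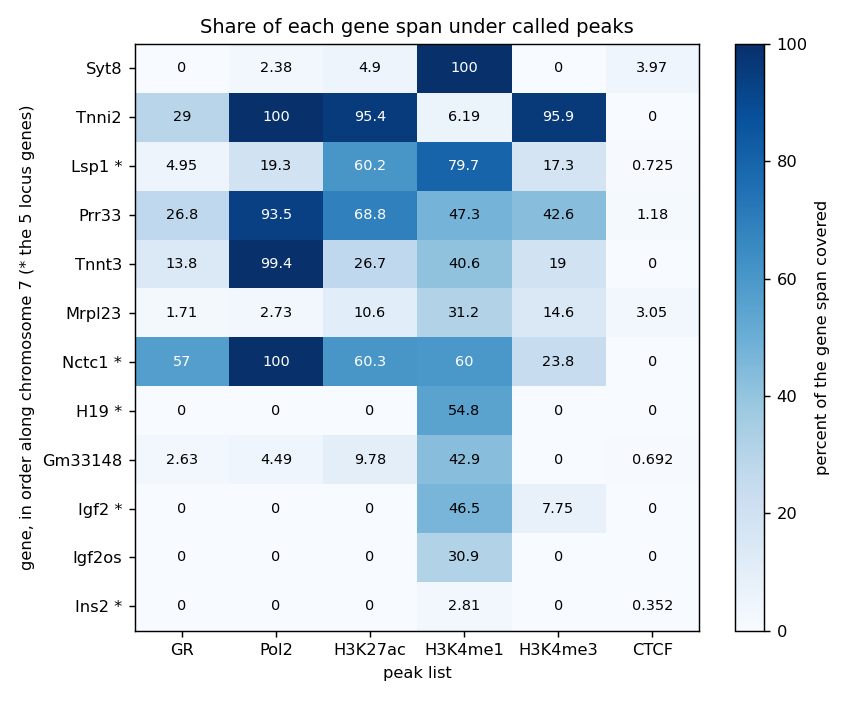
Percent of the span of each gene under called peaks, for the 5 locus genes (asterisks) and the named neighbours, in their order along the chromosome (rows) and for each peak list (columns; darker is more). Nctc1 reads 57 for GR and 100 for Pol2, while H19, Igf2 and Ins2 read 0 for GR, Pol2 and H3K27ac.

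Between H19 and Igf2, outside the control region, one element stood out. A H3K4me1 peak of 11723 bases in Gm33148 (chr7:142594963-142606685) held 3 GR peaks of 281, 253 and 229 bases, which lay 21.8 to 23.1 kb upstream of the H19 start site. It also held 6 Pol2 peaks, the widest of 475 bases, and 3 H3K27ac peaks, the widest of 1727 bases. It held no H3K4me3 and no CTCF peak. All 3 GR peaks were of the enhancer class. The remaining GR peak upstream of H19 (chr7:142629842-142630026, 185 bases) lay 51.8 kb away and met H3K4me1 only. The CTCF peak of Gm33148 lay between this GR peak and the element, 32.6 kb upstream of H19.

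Set against the whole GR list, the 50 GR peaks of the locus were spread differently over the classes when overlap of 1 base sufficed. Promoter-class peaks were 17 of 50 (34%), against 53.2% of the list, and enhancer-class peaks were 14 (28%), against 19.3%. H3K4me1-only peaks were 11 (22%), against 19.9%, H3K27ac-only peaks 2 (4%), against 0.811%, and peaks with no mark 6 (12%), against 6.78%. Where a mark had to cover 50% of the GR peak, 9 peaks were of the enhancer class and 17 had H3K4me1 only. The list's shares under that rule were not set beside these counts. Pol2 met 45 of the 50 (90%), against 51.3% of the list. All 14 GR peaks of Nctc1 met Pol2, as a gene fully under a Pol2 peak requires. CTCF met 3 of the 50 (6%), against 7.09% of the list. These peaks share a few long Pol2 and H3K4me1 peaks, so they are not independent observations and the shares were not tested.

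**Figure D5:**
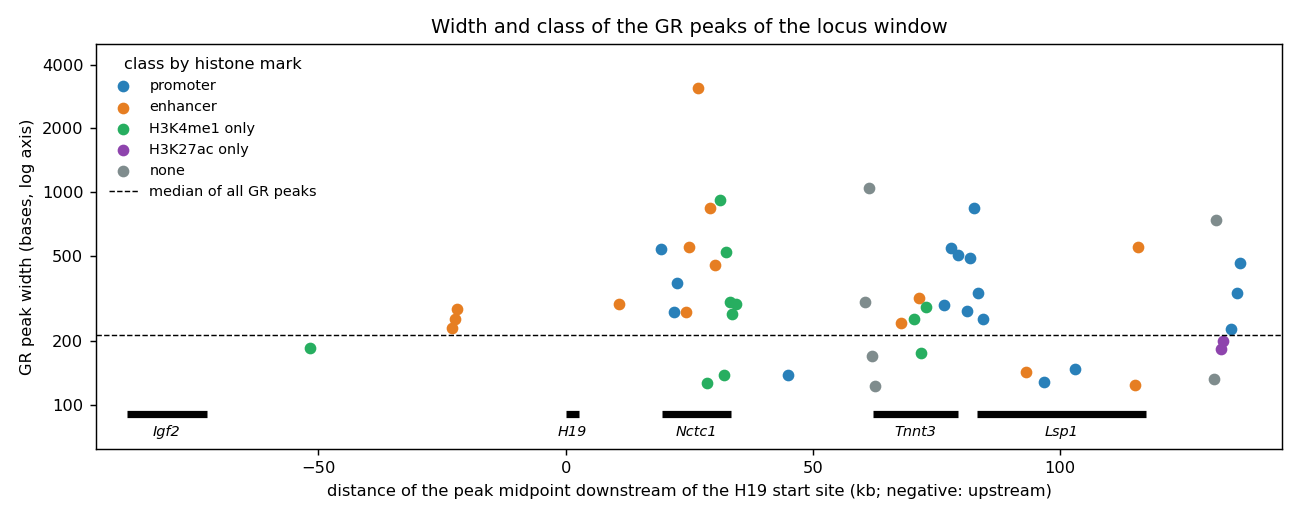
Width in bases (log axis) of the 50 GR peaks of the locus by the distance of their midpoint downstream of the H19 start site in kb (negative values are upstream), coloured by class, with gene spans as black bars. The dashed line is the median of all GR peaks, 212 bases; the widest peak, of 3106 bases, lies in Nctc1, and no point lies over H19 or Igf2.

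The GR windows of the locus were also read for short motifs on both strands. The GRE consensus with up to 1 mismatch was in the central 200 bases of 6 of the 50 peaks (12%), against 15.1% of the GR list and 3.06% of windows along chromosome 7. The half-site AGAACA was in 6 (12%), against 17.1% of the list and 18.4% of windows. The E-box CAGCTG, bound by myogenic factors, was in 9 (18%), against 18.2% of the list and 7.78% of windows, and the MEF2 consensus was in 2 (4%), against 2.79% and 3.87%. In Nctc1, 3 of the 14 GR peaks held a GRE match. These are shown with the match just past the end of Nctc1, under the same long Pol2 peak, and the one between Nctc1 and H19, which leaves out only the match at Tnni2. The match is in capitals, on the plus strand.
Past the end of Nctc1, GR peak of 299 bases (chr7:142543567-142543601): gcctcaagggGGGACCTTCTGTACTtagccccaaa
Nctc1, GR peak of 916 bases (chr7:142546915-142546949): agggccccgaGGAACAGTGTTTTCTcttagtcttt
Nctc1, GR peak of 453 bases (chr7:142547876-142547910): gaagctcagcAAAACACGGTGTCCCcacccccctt
Nctc1, GR peak of 273 bases (chr7:142553790-142553824): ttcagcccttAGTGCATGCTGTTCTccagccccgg
Between Nctc1 and H19 (chr7:142567374-142567408): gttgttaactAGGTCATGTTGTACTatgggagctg
The AGAACA half-site read on the minus strand lies within the match of the 273-base peak. The widest peak held no GRE match in its central 200 bases.

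The locus was set beside lists of related genes. Of 32 other imprinted genes, 15 had Pol2, 22 had H3K4me3, 12 had H3K27ac and 1 had CTCF within 1 kb of a start site, and 14 had GR within 25 kb. Over all protein-coding genes, the shares were 47.1% for Pol2, 61.5% for H3K4me3, 52.4% for H3K27ac, 7.54% for CTCF and 59.8% for GR. Over long non-coding genes they were 14.1%, 20.9%, 19.3%, 2.91% and 41%, at the same distances. The list mixes both kinds of gene, and its difference from these shares was not tested. In the imprinted cluster next to this one, Cdkn1c, an inhibitor of the cell cycle, had H3K4me3 and Pol2, and Phlda2 and the potassium channel gene Kcnq1 had H3K4me3 without Pol2. The antisense RNA Kcnq1ot1 had H3K4me3, H3K27ac and Pol2. None of those 4 had GR within 25 kb.

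Among 18 genes of the insulin-like growth factor system, Igf2 included, 15 had GR within 25 kb, 9 had Pol2, 14 had H3K4me3 and 11 had H3K27ac. The shares over all protein-coding genes were 59.8%, 47.1%, 61.5% and 52.4%, in that order, and the difference was not tested. Igf1, the other ligand, had H3K4me3 and H3K27ac without Pol2 at its start sites, with a GR peak 210 bases away. The receptor genes Igf1r and Igf2r had all of Pol2, H3K4me3 and H3K27ac, with GR peaks 625 and 57 bases away. Igf2 had fewer of these marks than its receptors, with H3K4me3 but neither Pol2 nor H3K27ac.

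Marker lists were used to check the tissue. Of 10 skeletal muscle fibre genes, all 10 had GR within 25 kb, Pol2 and H3K27ac, and 9 had H3K4me3. Over all protein-coding genes, the shares were 59.8% for GR, 47.1% for Pol2, 52.4% for H3K27ac and 61.5% for H3K4me3. Pol2 was at 0 of 4 satellite cell genes, 1 of 5 endothelial, 3 of 4 fibroblast, 1 of 4 immune, 0 of 5 beta cell, 0 of 4 catecholamine cell and 0 of 3 liver genes. Tnnt3 and Tnni2 of the locus are among the fibre genes. H3K4me3 was at 2 of 4 satellite cell genes, 5 of 5 endothelial, 3 of 4 fibroblast and 1 of 4 immune genes, and at 0 of the beta cell, catecholamine cell and liver genes. GR lay within 25 kb of 3 of 4 satellite cell genes, 1 of 5 endothelial, 3 of 4 fibroblast and 2 of 4 immune genes. It also lay that near to 2 of 4 catecholamine cell genes, 1 of 3 liver and 0 of 5 beta cell genes. The nuclei carried fibre marks, and genes of other cell types in muscle were marked as well. The part of other cell types in the peaks of the locus was not tested. Fewer nuclei of a type with a mark and less of the mark per nucleus cannot be told apart here, and the lists hold no allele information.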

How the data were processed

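ChIP-seq peak lists of mouse skeletal muscle nuclei were used, 6 lists with 1 library each. Per the submitters' processing notes, the tools were MACS2 (no version stated), Bowtie 1.0.0 and bcl2fastq 2.17.1.14 and the build was mm10; roles and thresholds are not given. Libraries were made from small amounts of DNA with PCR, per the labels' protocols. The authors deposited peak positions for all lists, and for CTCF and H3K4me3 also a score, a fold enrichment (ratio) and a −log10 q-value. These columns have no header and were read from their values: the score was 10 times the −log10 q-value, truncated. A fold is the authors' own value and was used only to rank peaks within its list. Depth is unknown, so no interval was computed.

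Peaks were joined to GENCODE vM21 genes on GRCm38 (Python 3.11.15, numpy 2.4.6), with sequence from RefSeq GRCm38.p6. Mitochondrial peaks, 21 in all, were left out. Peaks sharing 1 base or more were taken to overlap, and the histone marks met set the class of a GR peak. Motifs were read on both strands in 200-base windows at summits (CTCF) or midpoints (GR). The interval and motif functions were checked on simulated data. No test was run, since each antibody had 1 library. The genes named are the 5 locus genes, their annotated neighbours and up to 4 of each list in written order. Peaks named are all CTCF peaks, GR peaks among the 10 widest or in the locus genes, and others chosen after their values were seen. The members and lists were chosen with earlier results of these data known.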

Additional observations from a re-analysis of the deposited data

How the results depend on the processing

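No paired analysis was possible because each antibody had 1 library, and no replicate could be left out. Other flanks, or no flank (added after seeing the data), kept each list's count of peaks within 1.5 times. Lists were also cut to the widest 50%, or to the 50% with the highest fold. The stretch then held 25 of its 51 H3K27ac, 20 of its 32 H3K4me1 and 3 of its 16 H3K4me3 peaks. Of the 5 genes, GR and H3K4me3 were then each at 1, Nctc1. By RefSeq start sites Pol2 was at 1 gene, Nctc1, and CTCF at 1, Lsp1, as it was within 5 kb. Shares over all genes were not recomputed for the cut lists, the RefSeq start sites or 5 kb. With 50% of a GR peak covered, 9 GR peaks were of the enhancer class and 17 had H3K4me1 only. With marks within 1 kb counted as shared, 5 had H3K4me1 only and 1 had H3K27ac only. By −log10 q-value, or by score, 3 CTCF peaks lay above the list's median, against 5 by fold. By width 36 GR peaks lay above the median of the list, but 20 by place in the deposited order. Within 100 kb, 25 of the 32 other imprinted genes had GR, but the share over all genes at that distance was not computed. The CTCF core consensus was in 0 CTCF windows with 1 mismatch fewer, against 24.3% of the list and 0.107% of windows along chromosome 7. With 1 more it was in 5 (71.4%), against 85.5% of the list and 14.4% of windows. CGNGGNGGC with 1 more was in 4 (57.1%), against 57.3% of the list and 16.9% of windows. The GRE consensus was in 0 GR windows with 1 mismatch fewer, against 3.79% of the list and 0.128% of windows along chromosome 7. With 1 more it was in 22 (44%), against 38.7% of the list and 28.9% of windows. AGAACA was in 45 GR windows (90%) with 1 mismatch, against 79.7% of the list and 94.5% of windows along chromosome 7. It was in 14 windows of 400 bases (28%), against 26.7% of the list, and in 11 whole peaks (22%), against 18.96%. Shares along the chromosome were not computed for these 2 settings. By the RefSeq span of Ins2, 93.2% was under H3K4me1 and 0% under CTCF. The other settings left the counts within 1.5 times, and the absence of a CTCF peak from the control region held for 2 to 4 kb as for 1.5 to 5 kb before the start site. What depth limits is the peaks that were called: a mark without a peak was not detectable here, and was not shown to be absent.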
